A study of Mus musculus with 6 samples.

Results

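The angiopoietin and Tie axis was followed in mouse lung through 6 genes: the ligands Angpt1 and Angpt2, the receptors Tek (Tie2) and Tie1, the phosphatase Ptprb and the transcription factor Foxo1. They were taken by name, with earlier results of these data known but by no threshold on a measured value, and are 6 of the 22911 genes that could be matched on the array. They carry 7 of the 32994 matched array probes, and where a gene had more than 1 probe the brightest over the 6 arrays stood for it. Lung RNA came from male C57BL6 mice aged 10 weeks that had been starved for 16 h and injected i.p. with lipopolysaccharide (LPS) at 20 mg·kg-1. The saline group received saline 3 and 24 h after LPS. The rhTM group received recombinant human thrombomodulin, the soluble form of an endothelial receptor that binds thrombin, at the same times, at 30 mg·kg-1 as the methods state. Lungs of 3 mice per group were taken 30 h after LPS, and each was measured on its own 1-colour Agilent array. The general animal methods name the control injection as PBS, and the methods and the sample labels name different RNA kits. All mice of both groups had received LPS, so no value here compares LPS with its absence. A whole lung holds many cell types, and fewer cells of a type and less RNA per cell cannot be told apart.

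The angiopoietins act through Tie2, a receptor tyrosine kinase found mainly on endothelial cells. Angpt1, released by pericytes, smooth muscle cells and platelets, activates Tie2 and thereby keeps endothelial junctions tight, whereas Angpt2 is stored in the Weibel-Palade bodies of endothelial cells, is released in inflammation and can block Tie2. Tie1 is a related receptor that does not bind the angiopoietins well by itself and modifies Tie2 signalling, and Ptprb (VE-PTP) is an endothelial phosphatase that removes phosphate from Tie2 and from VE-cadherin. Foxo1 is held out of the nucleus by AKT when Tie2 is active, and in the nucleus it drives genes that include Angpt2. In endotoxaemia, this axis is known for its link to vascular leakage in the lung.

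Tek and Tie1 are the receptors of the axis, whose values followed each other across arrays, and both lie on mouse chromosome 4. A promoter was found for 3 of the 6 members (Tek, Tie1 and Foxo1) in a RefSeq table of build GRCm38.p6. The 250 bases upstream of the annotated start of each receptor gene are shown from 5′ to 3′ on the strand of the gene, at chr4:94739039-94739288 (+ strand) for Tek and chr4:118489850-118490099 (- strand) for Tie1. Capitals mark GGAA on either strand (read as TTCC on the strand shown), the core of the motif bound by ETS factors, a family with many roles in endothelial genes.
Tek: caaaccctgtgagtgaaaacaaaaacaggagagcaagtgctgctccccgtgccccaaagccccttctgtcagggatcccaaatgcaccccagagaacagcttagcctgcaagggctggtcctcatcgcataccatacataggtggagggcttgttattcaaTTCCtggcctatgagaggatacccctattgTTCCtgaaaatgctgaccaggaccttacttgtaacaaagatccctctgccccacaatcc
Tie1: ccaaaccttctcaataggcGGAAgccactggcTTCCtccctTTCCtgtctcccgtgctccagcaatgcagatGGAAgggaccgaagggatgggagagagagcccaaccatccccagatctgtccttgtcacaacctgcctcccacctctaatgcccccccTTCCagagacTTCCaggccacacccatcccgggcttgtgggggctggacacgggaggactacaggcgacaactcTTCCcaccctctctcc
There were 7 copies of GGAA in the Tie1 window, 2 in that of Tek and 2 in that of Foxo1. Of all 32851 promoter windows of the same length, 93.4% held the motif at least once, 76.8% held 2 copies or more and 3.8% held 7 or more. The longer form CGGAAG, which contains GGAA, occurred once in the Tie1 window and in 13.6% of all windows. Neither the FOXO motif GTAAACA (3.2% of all windows, both strands) nor the GATA motif AGATAA (10.0%) occurred in any of the 3 windows. These counts describe letters in a fixed window and were not linked to any measured difference.

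The identity of 2 arrays is not settled, and it bears on the comparisons of the groups below. In the table of values that the authors deposited beside the scanner output, the column of saline replicate 1 holds the array scanned as rhTM replicate 2 and the reverse, with 99.9% of probes matching within 0.1%. Values below follow the scanner output unless the table is named, and for the members those by the table's assignment are given beside them. Across arrays the 75th percentile of the signal ran from 673 to 838. The array of rhTM replicate 1 stood apart, with correlations to the other arrays from 0.979 to 0.988 over all genes tested, where all other pairs reached at least 0.985. For one of the exchanged arrays, that scanned as saline replicate 1, the spike-in slope was 0.826 and out of the software's range, against 1.07 to 1.09 elsewhere. It correlated at 0.9943 with rhTM replicate 3 of the same slide, 0.9895 with saline replicate 2 and 0.9883 with saline replicate 3. The array scanned as rhTM replicate 2 correlated at 0.9950, 0.9933 and 0.9851 with saline replicates 2 and 3 and rhTM replicate 3. What these values say of identity was not tested.

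Across the 6 members, the mean in rhTM-treated lungs was lower for Angpt1, Tek and Tie1 and higher for Angpt2, Ptprb and Foxo1, but none passed the test between groups. With limma's moderated test and Benjamini-Hochberg adjustment over 16370 genes, the adjusted p was 0.9998 for each member, and 0 of 6 were called at 0.05 (background 0%, 0 of 16370 genes). None of the 6 was at an unadjusted p under 0.05 either, where 1.84% of all genes were. None had groups that did not overlap, which was so with rhTM higher for 2.9% of all genes and with rhTM lower for 2.61%. By the table's assignment 0 of 6 were called as well (background 0% of 16320 genes). Tek and Ptprb then were at an unadjusted p under 0.05, where 14.1% of all genes were. In that assignment Ptprb did not overlap between groups with rhTM higher (9% of all genes) and Tek with rhTM lower (12.7% of all genes). All signals are given below as multiples of the array's own 75th percentile, and all 7 probes were well above background on all 6 arrays.

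**Figure D1:**
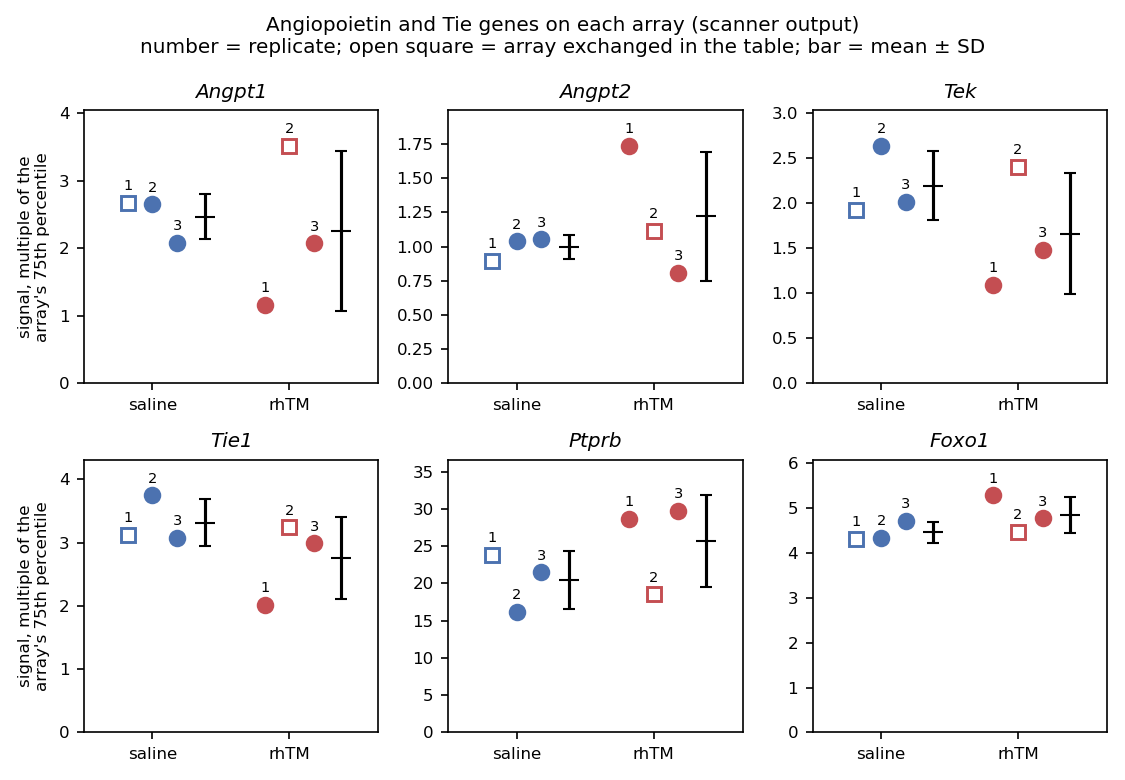
Signal of each member on each array as a multiple of the array's 75th percentile (y axis, linear, from 0), with saline and rhTM arrays on the x axis, the replicate number beside each point, open squares for the 2 arrays that are exchanged in the authors' table, and bars for mean ± SD (n = 3). The lowest Angpt1, Tek and Tie1 signals and the highest Angpt2 and Foxo1 signals were all on rhTM replicate 1.

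Of the ligands, Angpt1 gave signals of 2.67, 2.65 and 2.08 in saline replicates 1, 2 and 3 and of 1.16, 3.52 and 2.07 in rhTM replicates 1, 2 and 3. The rhTM group held both the lowest and the highest array, and the groups overlapped. The means were 2.47 ± 0.339 (SD, n = 3) for saline and 2.25 ± 1.19 (SD, n = 3) for rhTM, a log2 fold change of -0.27 (SE 0.38, 95% interval -1.17 to 0.64, exact two-sided permutation p = 0.7). An exact test of 3 arrays against 3 cannot go below 0.10. By the table's assignment the log2 fold change was -0.53 (adjusted p = 0.490 by limma), and the groups still overlapped. Without rhTM replicate 1 the scanner output gave 0.14 and the table -0.19, so the direction in the scanner output rested on that array. Without both exchanged arrays the value was -0.60 (adjusted p = 0.681 by limma). By the table with the slide in the fit as a block it was -1.21 (95% interval -1.97 to -0.45, adjusted p = 0.0843 by limma), where slide 2 held no saline array and rhTM replicate 1 was the one rhTM array beside saline arrays. Over the 6 arrays the Angpt1 log2 signal spanned 1.60, a range larger than that of 94.6% of genes.

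The antagonist ligand Angpt2 gave signals of 0.895, 1.04 and 1.05 in saline replicates 1, 2 and 3 and of 1.74, 1.12 and 0.809 in rhTM replicates 1, 2 and 3. A single array, rhTM replicate 1, lay well above the rest, while rhTM replicate 3 was the lowest of all 6. The log2 fold change was 0.23 (SE 0.27, 95% interval -0.42 to 0.88, exact permutation p = 0.7), with means of 0.995 ± 0.0873 (SD, n = 3) for saline and 1.22 ± 0.474 (SD, n = 3) for rhTM. It was 0.02 by the table's assignment, and without rhTM replicate 1 it was -0.06 (scanner output) and -0.33 (table). Within slide 2, which held saline replicate 1 and rhTM replicate 3, the difference was -0.15, against 0.41 within slide 1. When the slide entered the fit of the table's values as a block, the value was 0.70 with an adjusted p of 0.0490 by limma. This was the only one of the 6 members called in that fit, in which 2.65% of all genes were called. The call rests on 1 array: in the table's assignment slide 2 held no saline array, so the value is that of rhTM replicate 1 against the saline arrays of slide 1, with its spread taken from the other arrays.

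For the receptor Tek, signals were 1.93, 2.64 and 2.02 in saline replicates 1, 2 and 3 and 1.09, 2.40 and 1.48 in rhTM replicates 1, 2 and 3. The 2 lowest arrays were both rhTM arrays, and rhTM replicate 2, one of the exchanged arrays, was the second highest. The mean was 2.20 ± 0.386 (SD, n = 3) with saline and 1.66 ± 0.674 (SD, n = 3) with rhTM, which is 1.38-fold lower in rhTM on the log scale (log2 fold change -0.47, SE 0.30, 95% interval -1.17 to 0.24, exact permutation p = 0.3). With the arrays assigned as in the table, where slide 2 held no saline array, all 3 rhTM arrays lay below all 3 saline arrays. There the log2 fold change was -0.68 (SE 0.22, 95% interval -1.21 to -0.14, adjusted p = 0.314 by limma), and the exact permutation p was 0.1, the smallest this design allows. By the scanner output the exchanged arrays were the lowest saline and the highest rhTM array. Without both the log2 fold change was -0.86, with an adjusted p of 0.651 by limma. In the scanner output it was -0.51 within slide 1, -0.38 within slide 2 and -0.20 without rhTM replicate 1. The 25 alternatives gave -1.10 to -0.20, all negative. None of the 24 with a test called Tek at an adjusted p under 0.05, and slide 2 alone, with 1 array per group, has no test. Of the 25, 5 left the value as it was: both filters, the slide and the replicate number as balanced blocks, and the mean of probes for a gene with 1 probe.

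Tie1, the second receptor, gave signals of 3.12, 3.75 and 3.08 in saline replicates 1, 2 and 3 and of 2.02, 3.24 and 2.99 in rhTM replicates 1, 2 and 3. The array of rhTM replicate 1 was again the lowest, and the other 5 arrays lay close together apart from saline replicate 2. The means were 3.32 ± 0.375 (SD, n = 3) for saline and 2.75 ± 0.645 (SD, n = 3) for rhTM, with a log2 fold change of -0.29 (SE 0.20, 95% interval -0.78 to 0.19, exact permutation p = 0.4). By the table it was -0.33 (adjusted p = 0.454 by limma), and the groups overlapped in both assignments. Without rhTM replicate 1 the scanner output gave -0.08. The 25 alternatives gave -0.73 to -0.06, all negative, and none of the 24 with a test called Tie1.

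Ptprb, the phosphatase that acts on Tie2, had signals of 23.8, 16.2 and 21.5 in saline replicates 1, 2 and 3 and of 28.7, 18.5 and 29.7 in rhTM replicates 1, 2 and 3. The 2 highest arrays were both rhTM arrays, and rhTM replicate 2 was the second lowest, so that the groups overlapped. Means were 20.5 ± 3.92 (SD, n = 3) for saline and 25.6 ± 6.19 (SD, n = 3) for rhTM, a 1.24-fold difference on the log scale (log2 fold change 0.31, SE 0.24, 95% interval -0.25 to 0.87, exact permutation p = 0.3). Assigned as in the table, the lowest rhTM array lay above the highest saline array, with a log2 fold change of 0.55 (SE 0.15, 95% interval 0.20 to 0.91, adjusted p = 0.314 by limma, exact permutation p = 0.1). In that assignment slide 2 held no saline array. By the scanner output the exchanged arrays were the highest saline and the lowest rhTM array. Without both the value was 0.65, with an adjusted p of 0.651 by limma. In the scanner output slide 1 alone gave 0.31 and slide 2 alone 0.32. The 25 alternatives, of which the same 5 left the value as it was, gave 0.15 to 0.66, and none of the 24 with a test called Ptprb.

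Foxo1, the transcription factor downstream of Tie2 and AKT, gave 4.31, 4.34 and 4.72 in saline replicates 1, 2 and 3 and 5.29, 4.48 and 4.78 in rhTM replicates 1, 2 and 3. The arrays lay close together, with 1 rhTM array below the highest saline array. The log2 fold change was 0.12 (SE 0.12, 95% interval -0.17 to 0.41, exact permutation p = 0.2) from means of 4.46 ± 0.228 (SD, n = 3) for saline and 4.85 ± 0.409 (SD, n = 3) for rhTM. The table's assignment gave 0.08, and the dimmer of the 2 Foxo1 probes gave -0.00 (scanner output) and -0.02 (table). Without rhTM replicate 1 the brighter probe gave 0.05 (scanner output) and 0.01 (table). The spread of the brighter probe over the 6 arrays was 0.29 on the log2 scale, and 14.7% of genes had a smaller one. Foxo1 was the member whose signal moved least among arrays. Its activity is set largely by where the protein lies in the cell, which an RNA array does not measure.

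**Figure D2:**
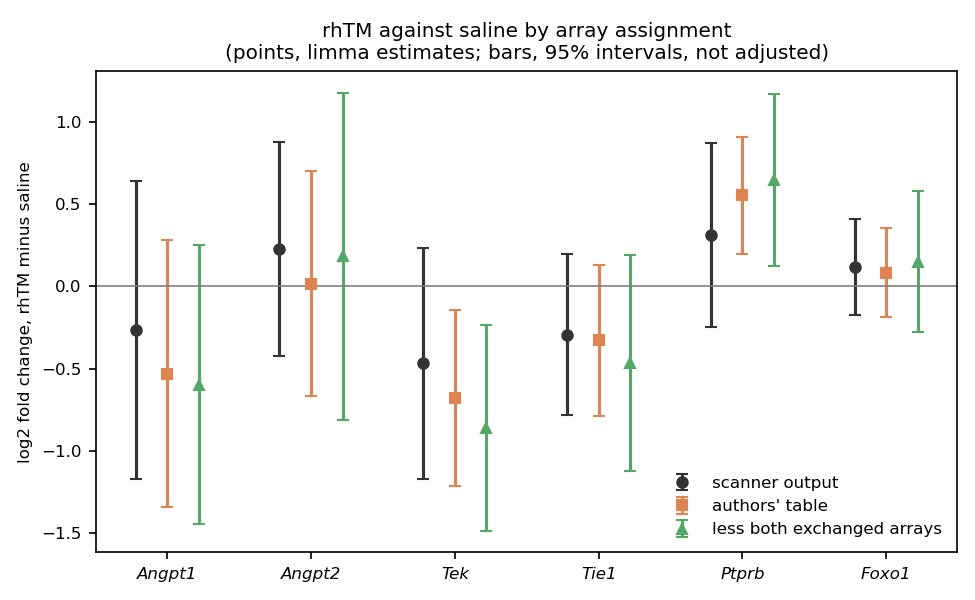
Log2 fold change of each member, rhTM minus saline (y axis), with unadjusted 95% intervals from limma, for the scanner output, the authors' table and the scanner output less both exchanged arrays. Intervals for Tek lie below 0 and those for Ptprb above 0 by the table and without both exchanged arrays. All intervals of the scanner output cross 0. Without the exchanged arrays, saline replicates 2 and 3 and rhTM replicates 1 and 3 remain. The arrays left out were the lowest saline and the highest rhTM array for Tek, and the reverse for Ptprb. By the table and without the exchanged arrays slide 2 held no saline array.

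Ratios of members within an array are not affected by a scaling factor common to all probes of the array. Each is given as the log2 deviation from its own mean over the 6 arrays, with no test. Angpt2 over Angpt1, the balance of the Tie2 ligands, was -0.52, -0.30 and 0.08 in saline replicates 1, 2 and 3 and 1.64, -0.60 and -0.30 in rhTM replicates 1, 2 and 3. The ratio was thus high on rhTM replicate 1 alone, and the other 2 rhTM arrays lay within or below the saline range. The groups differed by 0.50 in the scanner output and 0.55 under the table's assignment, and by -0.20 and -0.14 without rhTM replicate 1.
Ptprb over Tek, the phosphatase against its receptor, was 0.02, -0.99 and -0.20 in saline replicates 1, 2 and 3 and 1.11, -0.66 and 0.72 in rhTM replicates 1, 2 and 3. By the scanner output the groups overlapped and differed by 0.78. Under the table's assignment, where slide 2 held no saline array, the rhTM arrays were all above the saline arrays, with a difference of 1.23. The difference in the scanner output was 0.42 without rhTM replicate 1 and 1.51 without both exchanged arrays. The Tie1 over Tek ratio differed by 0.17 with overlap (scanner output) and 0.35 without overlap (table), and in the scanner output it differed by 0.055 without rhTM replicate 3 and by 0.35 without rhTM replicate 2. Angpt2 over Tek differed by 0.69 in both assignments, with overlap, and reached 1.45 on rhTM replicate 1. Without that array it differed by 0.14 in both.

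Set against the mean log2 signal of 24 endothelial markers on the same array, 4 members were read: Tek, Tie1, Ptprb and Angpt2. Relative to these markers, Tek differed by -0.40 (scanner output) and -0.50 (table), with overlap of the groups in both, and by -0.21 and -0.33 without rhTM replicate 1. Tie1 differed by -0.23 and -0.15, and Angpt2 by 0.29 and 0.19, again with overlap. For Angpt2 the difference was -0.07 and -0.19 without rhTM replicate 1, and for Tie1 it was -0.09 and 0.01. Ptprb over the markers was 0.15, -0.58 and -0.14 in saline replicates 1, 2 and 3 and 0.51, -0.38 and 0.43 in rhTM replicates 1, 2 and 3. That is a difference of 0.38 with overlap in the scanner output and 0.73 without overlap under the table's assignment. In the scanner output it was 0.21 without rhTM replicate 1 and 0.18 without saline replicate 2.

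By Pearson r over the 6 arrays the receptors were the most closely related pair of members, while by rho they and the pair of Tek and Ptprb were equally close. These correlations do not depend on which arrays are called saline or rhTM. Tek and Tie1 had a Pearson r of 0.926 (exact permutation p = 0.00278, adjusted p = 0.0417 over the 15 pairs of members) and a Spearman rho of 0.943 (exact permutation p = 0.0167, adjusted p = 0.125). It was 0.941 without the 2 arrays farthest from the Tek median and 0.830 without rhTM replicate 1. With the mean of each slide subtracted it was 0.971. Such a correlation was not rare on these arrays, since 5.5% of genes had a larger absolute r with Tek than Tie1 had.
Tek and its phosphatase ran opposite to each other on these 6 arrays, though not at an adjusted p under 0.05. Tek and Ptprb had r = -0.917 (exact permutation p = 0.00972, adjusted p = 0.0556 over 15 pairs) and rho = -0.943 (exact permutation p = 0.0167, adjusted p = 0.125). Without the 2 arrays farthest from the Tek median r was -0.993, and without rhTM replicate 1 it was -0.994, and with the mean of each slide subtracted -0.975. A larger absolute r with Tek was found for 6.51% of genes.
Angpt1 and Tek, agonist and receptor, had r = 0.886 (exact permutation p = 0.0208, adjusted p = 0.0556) and rho = 0.714 (exact permutation p = 0.136, adjusted p = 0.292), and r was 0.639 without the 2 arrays farthest from the Angpt1 median and 0.935 with slide means subtracted. The relation of Angpt2 and Tek turned with 1 array, with r = -0.470 over all arrays (exact permutation p = 0.354, adjusted p = 0.38) and 0.865 without rhTM replicate 1, with a rho of -0.029 over all 6 (exact permutation p = 1.0, adjusted p = 1.0). With slide means subtracted it was -0.863. Foxo1 had r = -0.907 with Tie1, -0.902 with Angpt1 and -0.881 with Tek (exact permutation, adjusted p = 0.0556 for each). Without rhTM replicate 1 these were -0.645, -0.660 and -0.654. By rho the adjusted p of the exact permutation was 0.146, 0.146 and 0.292. Within slide 1, which held 4 arrays, r was 0.991 for Tek and Tie1, -0.977 for Tek and Ptprb, 0.933 for Angpt1 and Tek and -0.952 for Angpt2 and Tek. Slide 2 held 2 arrays, too few for a correlation.

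**Figure D3:**
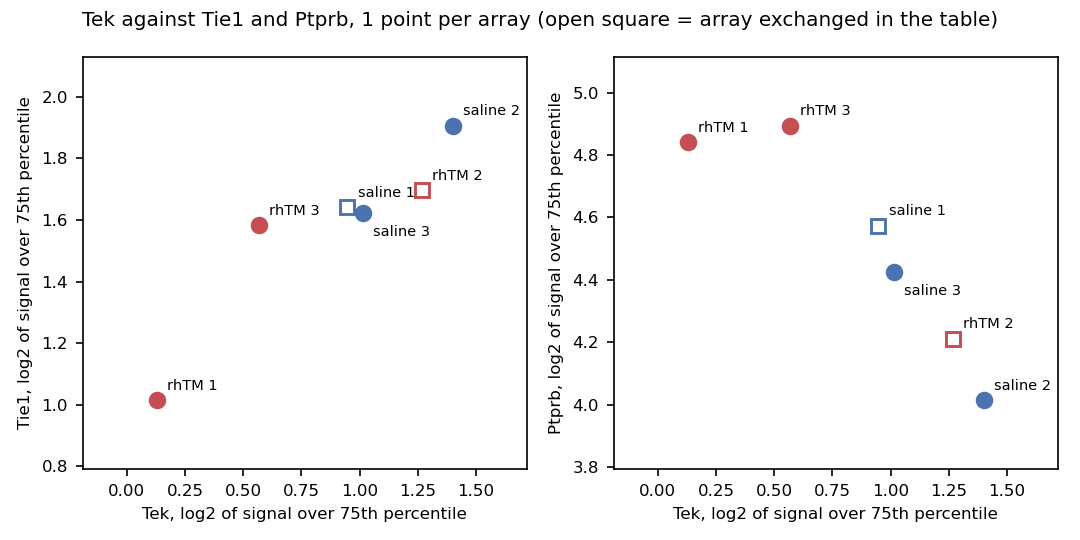
Log2 signal of Tek (x axis) against Tie1 (left) and Ptprb (right), relative to the array's 75th percentile, 1 point per array, with open squares for the 2 exchanged arrays. Tie1 was higher where Tek was higher (r = 0.926), and Ptprb was lower where Tek was higher (r = -0.917).

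The genes most like each member over the 6 arrays were taken by Pearson r, as a description. For Tek they were Ankrd52 (r = 0.999), Wnt9a (0.998) and Zfyve21 (0.996), and for Tie1 they were Gpt, Afg1l and Rab26 (0.996 to 0.999). Angpt1 was followed most closely by Plscr4, Ppp1r16b and Tspan13 (0.993 to 0.999). Angpt2 was followed by Fam104a, Kat5 and Nfkbia, the last an inhibitor of NF-κB that is itself induced by it (0.997 to 0.998). The genes for Ptprb were Smim6, Pnpla8 and Wfdc2 (0.993 to 0.994), and those for Foxo1 were Cfap20, Pde3b and Cib1 (0.995 to 0.996). With only 6 arrays many genes reach such values: between 87 and 322 genes had r above 0.95 with each member.

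Endothelial markers followed Tek in part. Of the 24, 9 (37.5%) had r above 0.8 with Tek over the 6 arrays, against 12.4% of all other genes, among them Pecam1 (0.949), Icam2 (0.960) and Sox17 (0.976). A further 3 (12.5%), S1pr1 (-0.970), Cldn5 (-0.935) and Ednrb (-0.882), had r below -0.8, against 8.5% of all other genes. No test was run on these shares. Calcrl, a receptor component for adrenomedullin, gave 25.7, 24.6 and 18.9 in saline replicates 1, 2 and 3 and 5.78, 28.9 and 19.7 in rhTM replicates 1, 2 and 3. Its low array was again rhTM replicate 1, and its log2 fold change of -0.62 was the lowest of the list (adjusted p = 0.9998 by limma), as was that of -0.73 under the table's assignment. Gpihbp1, the capillary anchor of lipoprotein lipase, had the highest log2 fold change in the scanner output, 0.45, with signals of 8.56, 11.1 and 15.2 in saline and 17.5, 13.2 and 15.8 in rhTM replicates 1, 2 and 3. Under the table's assignment Gpihbp1 was at 0.03 and S1pr1, a receptor for sphingosine 1-phosphate, was the highest at 0.49. On rhTM replicate 1, Tek, Tie1 and the markers Calcrl, Sox17, Ramp2, Pecam1, Egfl7, Eng, Sox18, Plvap, Mmrn2 and Icam2 were at their lowest. S1pr1 (21.6 against 12.2 to 17.8 elsewhere), Kdr (17.3 against 10.8 to 14.0), Cdh5, Cldn5, Gpihbp1, Ednrb and Cyyr1 were at their highest there.
Of the 24 endothelial markers 12 had a higher and 12 a lower mean with rhTM by the scanner output (median log2 fold change 0.00), and 7 and 17 by the table (median -0.18). Over all genes the medians were 0.00 and -0.03. The summed signal of the list was 582 to 602 on the saline arrays and 526 to 608 on the rhTM arrays, and all 24 were above the filter for testing. The part of endothelial cell content in the Tek and Tie1 values was not tested.

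Other cell types that hold members were read through their markers. Pericyte and smooth muscle markers, for cells that release Angpt1, had 9 of 13 members higher and 4 lower with rhTM by the scanner output (median 0.18) and 7 and 6 by the table (median 0.08). The pericyte gene Rgs5 had the highest value of the list, 1.30, with signals of 0.152, 0.132 and 0.162 in saline and 0.282, 0.344 and 0.503 in rhTM replicates 1, 2 and 3. Its groups did not overlap by the scanner output but did by the table (0.52), and its adjusted p was 0.9998 and 0.652 by limma. The lowest was Acta2 of smooth muscle at -0.36, which was 0.08 by the table. The summed signal of this list was 58.1 to 91.8 on saline arrays and 66.5 to 99.5 on rhTM arrays. Under the table's assignment it was 58.1 to 66.5 and 70.4 to 99.5, without overlap. The 2 highest sums were on the arrays of slide 2, where Notch3, a receptor of mural cells, gave 48.3 and 51.2 against 21.9 to 28.1 on the other 4 arrays.
Platelet and megakaryocyte markers, for another source of Angpt1, summed to 10.8 to 15.4 on saline arrays and to 14.0 to 28.5 on rhTM arrays (14.2 to 15.4 and 10.8 to 28.5 under the table's assignment). The highest sum was on rhTM replicate 1, the array with the lowest Angpt1 signal. Values ran from -0.65 for Gp1ba to 0.47 for Pf4, with 3 of 7 higher in the scanner output and 2 of 7 under the table's assignment.
Of the remaining markers in the scanner output, lymphatic endothelial genes ranged from -0.17 (Prox1) to 0.46 (Lyve1), fibroblast genes from -0.12 (Dcn) to 0.37 (Lum) and macrophage genes from -0.23 (Adgre1) to 0.15 (Marco). Neutrophil genes ranged from -0.31 (Ltf) to 0.49 (Camp) and lung epithelial genes from -0.47 (Slc34a2) to 0.17 (Aqp5). Under the table's assignment several of these signs turned: Prox1 was at 0.43 without overlap, Dcn at 0.48, Marco at -0.18 and Ltf at 0.04. All 8 macrophage genes were then lower (-0.25 to -0.01), as were 9076 of all 16320 genes. The summed neutrophil signal, which overlapped in the scanner output, was then 964 to 1067 on saline and 1097 to 1250 on rhTM arrays. The highest epithelial gene was then Foxj1 of ciliated cells, at 0.77 with overlap. The labelled tissue is lung, and 11 of 12 surfactant and other epithelial markers were above the filter for testing. No gene of any marker list passed an adjusted p of 0.05 in either assignment.

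The regulators of the ligands and receptors were read from a list of 18 genes, of which 17 were tested and Angpt4, a further Tie2 ligand, was not. By the scanner output 11 were higher and 6 lower with rhTM (median log2 fold change 0.02), and 9 were higher and 8 lower under the table's assignment (median 0.02). In both, 0 of 17 were called. Hif1a, the oxygen-regulated factor that can drive Angpt2, was the highest at 0.53, with signals of 13.3, 14.1 and 12.9 in saline and 22.5, 16.0 and 20.1 in rhTM replicates 1, 2 and 3. Its groups did not overlap by the scanner output, its adjusted p was 0.9998 by limma, and by the table it was 0.35 with overlap. Vwf, the partner of Angpt2 in Weibel-Palade bodies, was the lowest at -0.19, and at -0.51 by the table (adjusted p = 0.348 by limma). Its signals were 11.2, 17.2 and 13.6 in saline and 8.19, 15.7 and 13.8 in rhTM replicates 1, 2 and 3, with overlap in both assignments.

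Downstream of Tie2, the list of 25 adaptors, kinases and junction proteins had 13 higher and 12 lower by the scanner output (median 0.00), 10 and 15 by the table (median -0.03), and 0 called. Pik3ca, a catalytic subunit of the PI3-kinase that leads to AKT, was the highest, at 0.55. Its signals were 16.5, 3.86 and 7.08 in saline and 10.5, 7.18 and 18.9 in rhTM replicates 1, 2 and 3. The 2 highest arrays were the pair on slide 2, 1 of each group by the scanner output and both rhTM by the table, where the value was 1.35 without overlap (adjusted p = 0.314 by limma). Pak1, a kinase of the cytoskeleton, was the lowest at -0.25, with overlap by the scanner output and without it by the table (-0.31, adjusted p = 0.396 by limma).

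Genes known to respond to FOXO factors gave 13 higher and 10 lower of 23 tested by the scanner output (median 0.07), and 15 and 8 by the table (median 0.06). Their summed signal was 172 to 189 on saline arrays and 176 to 212 on rhTM arrays. By the table it was 172 to 184 and 186 to 212, without overlap. Igfbp1 was not tested, and 0 of 23 were called. Irs2, an insulin receptor substrate induced by FOXO1, was the highest at 0.35, with signals of 4.54, 3.37 and 3.62 in saline and 6.89, 2.97 and 5.64 in rhTM replicates 1, 2 and 3. By the table its groups did not overlap, and the value was 0.76 (adjusted p = 0.314 by limma). Pck1, an enzyme of glucose synthesis, was the lowest at -0.84 (adjusted p = 0.9998 by limma), with signals of 0.193, 0.143 and 0.264 in saline and 0.0538, 0.153 and 0.155 in rhTM replicates 1, 2 and 3. Some genes stand in more than 1 list, among them Klf2, Cdh5, Kdr and S1pr1.

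**Figure D4:**
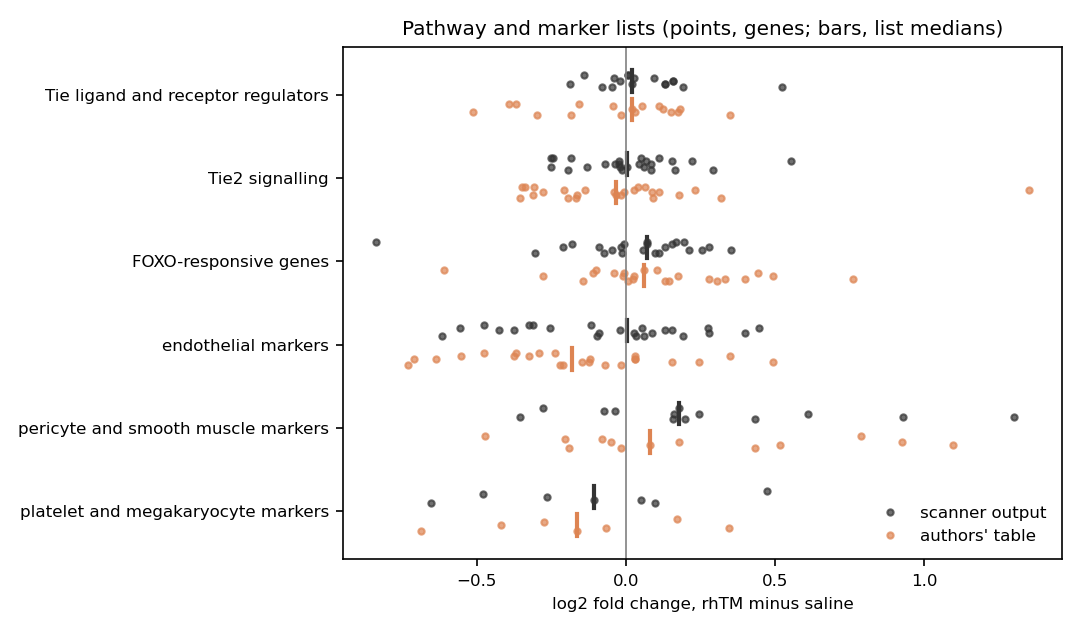
Log2 fold change, rhTM minus saline (x axis), of every tested gene in 3 pathway lists and 3 marker lists (y axis), with bars for list medians, for the scanner output and for the authors' table. The medians of the 3 pathway lists lie between -0.03 and 0.07 in both assignments, and that of the endothelial markers is 0.00 (scanner output) and -0.18 (table).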

How the data were processed

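The 6 arrays were Agilent SurePrint G3 Mouse arrays, 1 per lung. The authors deposited, per the file headers, scanner output of Feature Extraction 10.7.3.1. Its processed signal is a linear intensity corrected for background within the array. A deposited table holds these intensity values too, with 2 columns exchanged. Deposited flags for outliers and for signal above background were used as filters. Control spots were left out, as were 398 probes for which an array had nothing but outlier spots, spots of a probe were averaged, and each array's 75th percentile was subtracted on the log2 scale. Accessions of probes were matched to a RefSeq gene table (GRCm38.p6). Genes were tested where all 3 arrays of a group put the probe well above background, and the brightest probe stood for its gene.

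Groups, taken from the sample labels, were compared by lmFit and eBayes of limma 3.58.1 under R 4.3.3. P-values were adjusted by Benjamini-Hochberg across every gene tested, and 0.05 was the threshold. Exact permutation tests used SciPy 1.17.1. The fits were tested on simulated data. Members and lists were chosen with earlier results of these data known. Besides the members, the highest and the lowest gene of each list and the 3 genes most like each member are named. Pecam1, Icam2, Sox17, Ramp2, S1pr1, Foxj1, Notch3, Kdr, Cldn5, Ednrb and the other endothelial markers named for rhTM replicate 1 were picked after their values were seen. Nothing says more of the 3 lungs of a group than that they came from separate mice, and the number of arrays limits the precision.

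Alternatives were normexp with an offset of 50 (on median spot signals), quantile normalization, another percentile, the authors' table, other filters, the mean of a gene's probes, the slide and the replicate number as blocks, each array left out and the methods' t-test. Correlations within a slide and with slide means subtracted were added after the data were seen. The labels do not say whether replicate numbers pair the samples. Deviations from the group means correlated at -0.3, 0.439 and -0.447 for numbers 1, 2 and 3, too few values to decide it.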

Additional observations from a re-analysis of the deposited data

How the results depend on the processing

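Of the members, Tek and Tie1 had a negative and Ptprb and Foxo1 a positive sign under the 25 alternatives, of which at least 4 per gene could not move the value. Angpt1 ranged from -0.79 to 0.14 with single arrays left out, turned positive in the scanner output without rhTM replicate 1 (-0.19 by the table) and was -1.21 under the table's assignment when the slide was a block. Angpt2 ranged from -0.33 to 0.49, was -0.15 within slide 2 and was called only under the table's assignment when the slide was a block (0.70, resting on rhTM replicate 1). The number of genes called was 0 in the scanner output, 433 by the table when the slide was a block, 1 without both exchanged arrays and 0 to 599 with single arrays left out, the highest by the table without rhTM replicate 1, where the other two rhTM arrays share slide 2. By the methods' t-test it was 0 after Benjamini-Hochberg adjustment in both assignments, and 1 gene (scanner output) and 14 genes (table) passed the methods' fold and p thresholds. With a replicate block, 0 genes were called and Tek was at -0.47, so the block changed no call.

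Medians were rerun for the 3 pathway lists. That of the Tie regulators was 0.093 within slide 2 and -0.101 to 0.089 with single arrays left out. That of Tie2 signalling was -0.017 with the percentile taken over probes detected on all arrays, -0.033 by the table, -0.023 when the slide was a block there, -0.027 without both exchanged arrays, 0.052 with the mean of a gene's probes and -0.073 to 0.058 with single arrays left out. That of FOXO-responsive genes was 0.222 by the table and slide block and -0.036 to 0.144 with single arrays left out. Of the ratios, Angpt2 over Angpt1 was -0.203 to 0.943 with single arrays left out, Angpt2 over Tek 0.14 to 1.03 and Ptprb over Tek 0.419 to 1.53. Ptprb over endothelial markers was 0.83 without both exchanged arrays and 0.18 to 0.85 with single arrays left out, Tek over them was -0.691 to -0.207, Angpt2 over them was -0.18 within slide 2 and -0.19 to 0.55, Tie1 over them -0.305 to 0.011, and Tie1 over Tek 0.055 to 0.435. The cause of these shifts was not tested. All members were well above background on all arrays.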
